A study of Homo sapiens with 4 samples.

Results

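ABCG2 and 9 further ATP-binding cassette (ABC) genes for drug and sterol exporters were followed in SUIT2 cells given the anticancer agent fb-PMT. The group was chosen by gene symbol, around ABCG2, which had been selected on its difference between the treated and control arrays of this series. Of the 10 genes, 9 had a transcript cluster, the probe set that summarises 1 locus, among the 21448 transcript clusters compared. They are ABCG2, ABCB1, ABCC2, ABCC3, ABCC4, ABCC5, ABCC10, ABCG1 and ABCA1. ABCC1 was not analysed here. Because the choice used this contrast, the values of the 9 genes are given as a description, without a test.

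RNA came from SUIT2 cells grown in RPMI medium with fetal bovine serum. The fb-PMT group (n = 2 arrays) received fb-PMT at 30 µM for 24 h, and the control group (n = 2 arrays) received phosphate-buffered saline for the same 24 h. fb-PMT is a derivative of the thyroid hormone analog tetraiodothyroacetic acid, made to act on the thyroid hormone site of integrin αvβ3. The study asked how the agent changes transcription of genes that serve mitochondria. All arrays are of 1 cell line, and the labels do not say whether replicates were separate cultures, so each p-value reflects the spread among these arrays alone, which may be technical.

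ABC transporters use the binding and hydrolysis of ATP to move substrates across membranes. ABCG2 (breast cancer resistance protein), ABCB1 (P-glycoprotein) and the ABCC exporters (multidrug resistance-associated proteins) pump drugs and conjugated metabolites out of cells and are best known for drug resistance of tumours and for barrier functions of gut, liver and brain capillaries. ABCA1 and ABCG1 instead hand cholesterol and phospholipid to lipoproteins. ABCG2 also exports urate and porphyrins and marks the side population, cells recognised by their efflux of a DNA dye.

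The labels call the cells glioblastoma, while SUIT-2 is known as a pancreatic carcinoma line. The epithelial markers EPCAM, KRT7, KRT8, KRT18 and KRT19 lay above the negative controls on all arrays, with EPCAM at 15.14 to 15.54 (log2). The glial markers GFAP (3.78 to 4.5), OLIG2 (2.34 to 2.92) and S100B (3.67 to 3.81) lay below the negative controls on all 4 arrays, as did the epithelial marker CDH1. Markers of other cell types, PTPRC of leukocytes, COL1A1 of fibroblasts and PECAM1 of endothelium, were below them too. The array's negative control probe sets gave the background: 95% of them lay under 7.38 and 7.22 in the control group and under 7.15 and 7.29 in the fb-PMT group. Where both arrays of a group fall short of that level, the gene is described as below the negative controls in that group.

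The promoters of ABCG2 and ABCB1 are shown because these were the drug exporters with the largest measured differences. RefSeq (GRCh38.p14) lists 5 start sites for ABCG2 and 2 for ABCB1. The arrays do not tell which start was used, and a window before one start may be transcribed from another. Each line gives the 250 bases before 1 start, 5′ to 3′ on the minus strand, at chr4:88158910-88159159 for ABCG2 and chr7:87600885-87601134 for ABCB1. Capitals mark matches on either strand to any of 6 motifs. The GC box is GGGCGG and the CCAAT box is spelled by its name. The core of the xenobiotic response element, bound by the aryl hydrocarbon receptor, is GCGTG, and that of the antioxidant response element is TGACNNNGC. The half-site of nuclear receptors is AGGTCA, and the E-box is CACGTG.
ABCG2: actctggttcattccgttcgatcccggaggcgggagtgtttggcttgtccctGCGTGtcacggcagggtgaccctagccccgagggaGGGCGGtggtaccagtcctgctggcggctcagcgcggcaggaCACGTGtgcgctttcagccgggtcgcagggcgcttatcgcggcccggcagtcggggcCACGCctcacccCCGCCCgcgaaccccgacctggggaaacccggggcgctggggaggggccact
ABCB1: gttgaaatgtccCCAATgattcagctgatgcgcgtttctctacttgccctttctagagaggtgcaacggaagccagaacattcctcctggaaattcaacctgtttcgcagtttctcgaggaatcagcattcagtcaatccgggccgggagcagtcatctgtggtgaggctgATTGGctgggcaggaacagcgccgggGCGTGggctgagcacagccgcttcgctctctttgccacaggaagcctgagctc
The ABCG2 window has a GC content of 71.2% and holds 2 GC boxes, 2 xenobiotic response element cores and 1 E-box. The ABCB1 window has 55.6% and holds 2 CCAAT boxes and 1 xenobiotic response element core. No base lies in more than 1 match. Among 34788 different RefSeq windows of this length, whose median GC content was 58.0%, the GC box occurs in 42.6%, the CCAAT box in 32.0%, the xenobiotic response element core in 32.2%, the antioxidant response element core in 10.9%, the half-site in 12.0% and the E-box in 6.31%. The windows before the ABCG2 starts farthest upstream, ending at the most distal start and at the next one, hold 0 matches to the 6 motifs and have a GC content of 40.0% and 43.6%. A further window, at chr4:88158860-88159109, overlaps the printed one and has the same counts of each motif. The window of the most proximal start, at chr4:88158640-88158889, has a GC content of 73.6% and holds 2 xenobiotic response element cores and 1 half-site of nuclear receptors, with 0 GC boxes and 0 E-boxes. The other ABCB1 window, at chr7:87713296-87713545, has a GC content of 39.2% and 0 matches. A match of letters describes the sequence and does not show a bound factor.

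ABCG2 had log2 values of 8.80 and 8.71 in control cells and 12.21 and 12.27 in cells given fb-PMT. Both groups lay above the negative controls, replicates of a group were close together, and the groups were far apart. The mean went from 8.75 ± 0.06 to 12.24 ± 0.04 (SD, n = 2 each), a log2 difference of 3.49 (SE 0.15), or 11.2-fold. Each SE and interval here uses limma's variance, drawn towards a value shared by all transcript clusters. It therefore need not follow from a gene's own SDs. The 4 treated-to-control array pairs differed by 3.42 to 3.56, and leaving out 1 array gave 3.45 to 3.53. Among all transcript clusters this was the measured difference of rank 2 on the high side. In RNA from bulk cells, a larger share of cells with the transcript and more transcript per cell cannot be told apart.

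**Figure D1:**
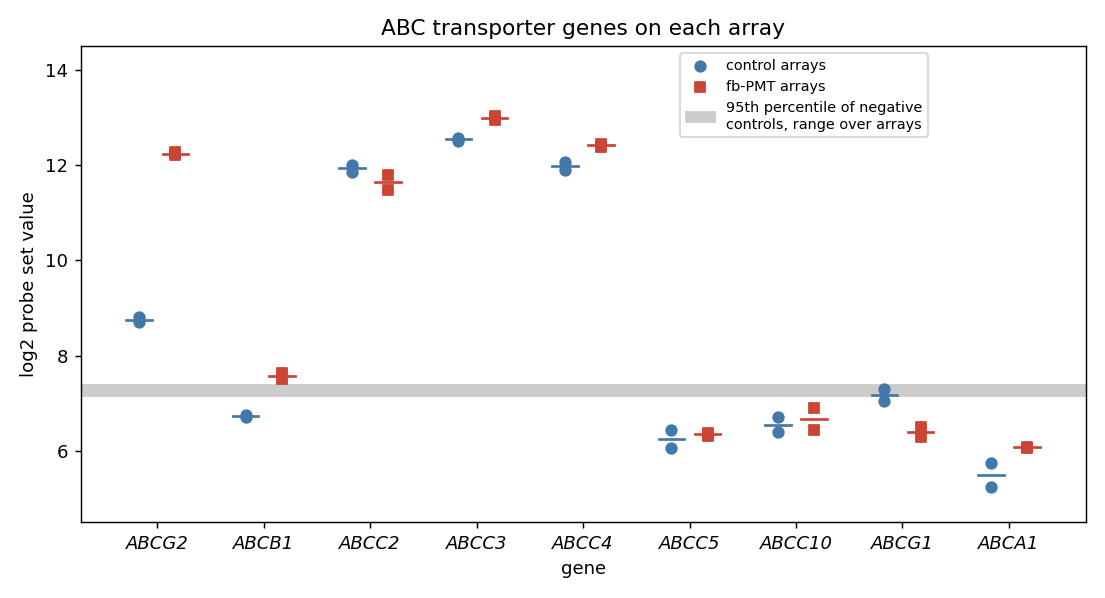
Log2 probe set values (vertical axis) of the 9 measured transporter genes on each control array (circles) and fb-PMT array (squares), with group means as short lines and the range of the negative controls' 95th percentile as a grey band. ABCG2 moves from 8.75 to 12.24, ABCC2, ABCC3 and ABCC4 stay high in both groups, and ABCC5, ABCC10, ABCG1 and ABCA1 lie below the negative controls throughout.

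ABCB1, the broad-range exporter of lipophilic drugs, had log2 values of 6.75 and 6.70 in control cells and 7.51 and 7.63 with fb-PMT. The control arrays were below the negative controls and the treated arrays just above them. The log2 difference was 0.84 (SE 0.15). Since the control level is only bounded, the fold is given as at least 1.2, computed from the negative controls. ABCB1 and ABCB4 are adjacent paralogs of similar sequence, and ABCB4, a phospholipid exporter of bile, was 0.61 higher (SE 0.22) while below the negative controls on all arrays. How far their probe sets share transcripts was not tested.

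Of the ABCC exporters, 3 were well above the negative controls, and they differed far less than ABCG2. ABCC3, which exports glucuronides and bile acids across the basolateral membrane, had log2 values of 12.51 and 12.57 in control cells and 12.94 and 13.02 with fb-PMT. It was 1.35-fold higher (log2 difference 0.44, SE 0.15). ABCC4, an exporter of cyclic nucleotides, prostaglandins and nucleotide analogs, had values of 11.89 and 12.06 against 12.44 and 12.38. It too was 1.35-fold higher (log2 difference 0.43, SE 0.15). The treated arrays lay above both control arrays for each of these genes.

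ABCC2, the apical exporter of conjugates such as bilirubin glucuronide, went the other way. Its log2 values were 11.86 and 12.0 in control cells and 11.80 and 11.48 with fb-PMT. The groups did not overlap, but the nearest arrays were only 0.06 apart and the treated arrays differed by more than that from each other. The difference was -0.29 (SE 0.18), 1.22-fold lower, and ran from -0.45 to -0.13 when 1 array was left out.

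ABCC5, another exporter of cyclic nucleotides and antimetabolites, had log2 values of 6.06 and 6.43 in control cells and 6.31 and 6.38 with fb-PMT. ABCC10, an exporter of taxanes, had 6.70 and 6.39 against 6.44 and 6.90. Neither gene reached the negative controls on any array, the groups overlapped, and no fold is given. Their log2 differences of 0.10 (SE 0.18) and 0.13 (SE 0.22) turned to as low as -0.08 and -0.11 when 1 array was left out.

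The sterol exporters lay below the negative controls on all 4 arrays and differed in opposite directions. ABCA1, which loads apolipoprotein A-I with cholesterol, had log2 values of 5.23 and 5.75 in control cells and 6.08 and 6.05 with fb-PMT, a difference of 0.58 (SE 0.21), or 0.318 when control replicate 1 was dropped. ABCG1, a half-transporter that moves sterol to lipoproteins, had 7.30 and 7.04 against 6.51 and 6.30, a difference of -0.77 (SE 0.18). The groups did not overlap for either gene. No fold is given at this signal.

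In all, 5 of the 9 genes had both treated arrays above both control arrays, against 20.2% of all transcript clusters, and 2 had both below, against 22.3%. Groups did not overlap, in either direction, for 42.6% of all transcript clusters, so separate groups are common with 2 arrays each. The median log2 difference of the 9 genes was 0.43, beside -0.017 over all transcript clusters. These counts come from the contrast used to choose the genes, and nothing is read from them.

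The other human ABC genes show how the rest of the family behaved. Of 38 such genes, 33 had a transcript cluster, and 25 of these stayed under the negative controls on every array. By limma's test with Benjamini-Hochberg adjustment over all 21448 transcript clusters, 0 of the 33 were called higher and 0 lower at an adjusted p under 0.05. Over all transcript clusters the called shares were 0.0979% higher and 0% lower. With the unadjusted p under 0.05 as the limit, 5 of the 33 differed upwards and 3 downwards, against 5.7% and 5.49% of all transcript clusters. Those 3 lower genes, ABCA9, ABCB11 and ABCC11, and the higher ABCA10 and ABCB4 lay below the negative controls on every array. The median difference of the 33 genes was 0.028 (log2). Both treated arrays lay above both control arrays for 5 genes and below for 10, of which 9 were below the negative controls.

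The largest differences among the other measurable ABC genes were in TAP1, TAP2 and CFTR. TAP1 and TAP2 form the transporter that brings peptides to MHC class I molecules. TAP1 had log2 values of 6.53 and 6.98 in control cells, below the negative controls, and 7.90 and 7.57 with fb-PMT (at least 1.35-fold higher, adjusted p = 0.26). TAP2 had 9.10 and 8.88 against 9.65 and 9.86 (1.7-fold higher, adjusted p = 0.259). Both treated arrays were above both control arrays for each of the pair, and the differences missed the threshold in limma's test over all transcript clusters.

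CFTR, the ABC protein that works as a chloride channel of duct epithelium, had log2 values of 11.71 and 11.61 in control cells and 12.33 and 12.24 with fb-PMT. It was 1.54-fold higher (log2 difference 0.62, SE 0.15, adjusted p = 0.283). When limma's variance was allowed to follow intensity, the adjusted p was 0.0145 for CFTR and 0.0402 for TAP2, and these were the 2 of 33 genes called higher, with 0 lower. That setting called 1.37% of all transcript clusters higher and 0.513% lower. With it TAP1 remained at an adjusted p of 0.0683. When limma was fitted only to transcript clusters above the negative controls, TAP1, TAP2 and CFTR had adjusted p-values of 0.0413, 0.0361 and 0.0402. That fit called 235 of 9199 clusters higher and 83 lower. TAP1 met its filter only through the fb-PMT arrays.

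Other ABC genes above the negative controls had smaller differences. ABCD3, of the peroxisome membrane, differed by 0.04 (95% interval -0.35 to 0.42), ABCB10, of the inner mitochondrial membrane, by 0.11 (SE 0.17) and ABCE1, a ribosome recycling factor, by 0.02 (SE 0.24). ABCF3, a cytosolic ABC protein without transmembrane parts, was 1.28-fold lower (log2 difference -0.36, SE 0.19, adjusted p = 0.543), and its difference was -0.158 when fb-PMT replicate 1 was dropped and -0.553 when replicate 2 of that group was. ABCA7, a phospholipid transporter, was above the negative controls on only some of the arrays and differed by 0.13 (SE 0.26), with overlapping groups. ABCG4, ABCG5 and ABCG8, the other genes of ABCG2's own subfamily, stayed under the negative controls on every array and had differences of -0.15, -0.14 and -0.18.

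**Figure D2:**
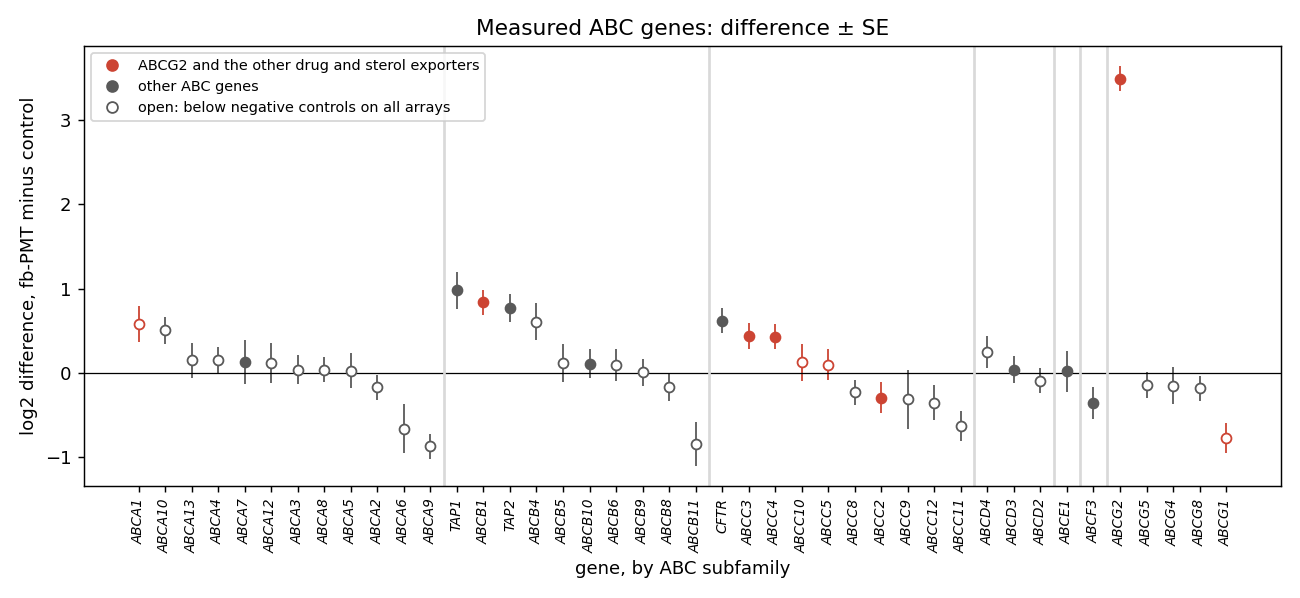
Log2 difference, fb-PMT minus control, with its standard error (vertical axis, bars) for each of the 42 measured ABC genes, grouped by subfamily along the horizontal axis. Filled points were above the negative controls on at least 1 array and open points on none. ABCG2 stands at 3.49, while TAP1, the next highest, stands at 0.98.

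The genes nearest to ABCG2 on its chromosome were read in the same arrays. Only genes with a transcript cluster were considered, so a gene without one may lie between those named. On one side, SPP1, which encodes the secreted matrix protein osteopontin, had log2 values of 8.20 and 8.72 in control cells and 9.46 and 9.67 with fb-PMT. It was 2.15-fold higher (log2 difference 1.10, SE 0.22) and missed the threshold in limma's test (adjusted p = 0.236), but passed with the intensity trend (adjusted p = 0.0179). Beyond it MEPE, IBSP and DMP1, genes of mineralised matrix, did not reach the negative controls on any array. Their differences were -0.21, -0.19 and -0.38.

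On the other side of ABCG2, PPM1K, a mitochondrial phosphatase of branched-chain amino acid breakdown, was below the negative controls on all arrays, with 6.77 and 6.80 against 6.93 and 6.50. HERC6, HERC5 and HERC3 follow, members of a ubiquitin ligase family. HERC5, the ligase for the interferon-induced modifier ISG15, had 5.58 and 6.71 in control cells and 6.58 and 6.83 with fb-PMT, all below the negative controls and overlapping. HERC6 differed by 0.11 (SE 0.18) and HERC3 by -0.15 (SE 0.17), again with overlapping groups. The adjusted p was 0.619 or more for these 4 genes.

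**Figure D3:**
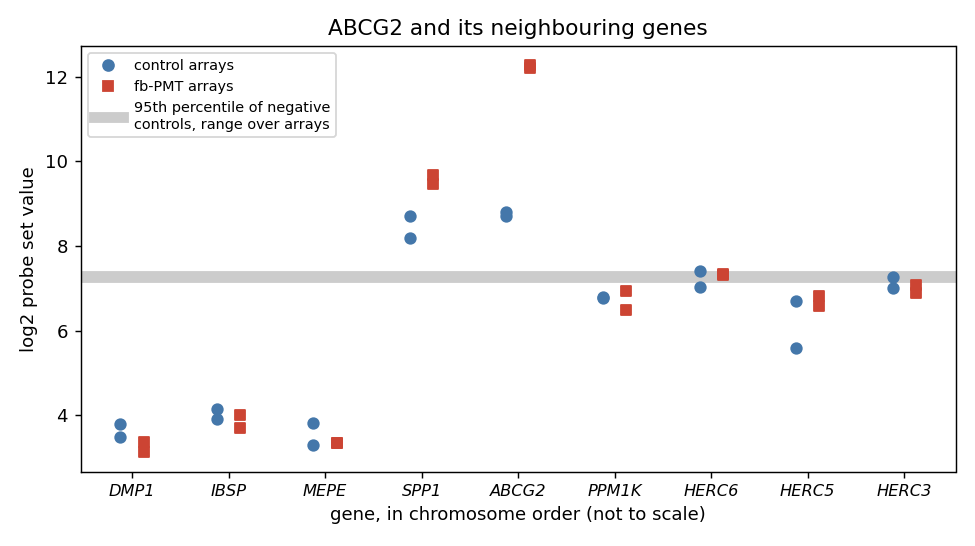
Log2 probe set values (vertical axis) on control arrays (circles) and fb-PMT arrays (squares) for ABCG2 and the 4 genes with a transcript cluster on each side, in chromosome order without distances. The grey band is the range of the negative controls' 95th percentile. SPP1 and ABCG2 have separate groups above the band, and the remaining genes lie close to the band or below it.

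Transcription factors known to act on ABC genes gave 0 calls in either direction among 31 measured, 13 higher and 18 lower, with a median difference of -0.046 (limma, adjusted p under 0.05). The unadjusted p was under 0.05 for 2 higher and 2 lower genes, and the intensity trend called 0. Here and in the lists below, a measured gene has a transcript cluster but may lie under the negative controls. Of the 31, 9 did so on every array. Over all transcript clusters 10150 differed upwards and 11298 downwards. The unadjusted p was under 0.05 for 5.7% and 5.49% of them, and the trend called 1.37% higher and 0.513% lower. RARB, a retinoic acid receptor (0.83, SE 0.24, adjusted p = 0.351), and GLI1, of hedgehog signalling (-0.66, SE 0.24, adjusted p = 0.416), had the largest log2 differences of the list, but lay below the negative controls on all arrays. FOXO1, a forkhead factor, was at -0.54 (SE 0.31) with overlapping groups, below the negative controls in fb-PMT cells. Among factors above the negative controls on both arrays of at least 1 group, the largest differences were in RARG, another retinoic acid receptor, and VDR, the vitamin D receptor. RARG differed by 0.54 (SE 0.14, adjusted p = 0.332) and was below the negative controls in control cells. VDR was 1.43-fold lower (log2 difference -0.52, SE 0.15, adjusted p = 0.348).

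Some textbook regulators of ABCG2 itself are named here after their values were seen. All of the following lay above the negative controls on all arrays. AHR, the aryl hydrocarbon receptor, had log2 values of 14.03 and 13.87 in control cells and 13.73 and 13.66 with fb-PMT (difference -0.26, 95% interval -0.64 to 0.12). NFE2L2, the antioxidant response factor NRF2, differed by -0.11 (95% interval -0.53 to 0.31). HIF1A, of the hypoxia response, differed by -0.04 (95% interval -0.49 to 0.41). PPARG, a lipid-sensing nuclear receptor, went from 12.21 and 11.87 to 11.70 and 11.59 (difference -0.40, 95% interval -0.84 to 0.05, and -0.23 when control replicate 1 was dropped). These intervals leave room for modest differences in transcript level, and transcript levels do not measure the activity of a factor.

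Known target genes of AHR, the liver X receptors, the PPARs and the pregnane X receptor gave 0 calls in each of 4 lists by limma's test. No separate list of target genes was drawn up for NFE2L2 or HIF1A. Of 7 measured AHR targets, 3 of them under the negative controls on every array, 3 were higher and 4 lower. At an unadjusted p under 0.05, 1 was higher and 3 lower, against 5.7% and 5.49% of all transcript clusters. Among those 3 lower genes, CYP1A2 and CYP1B1 lay below the negative controls on all arrays. ALDH3A1, an aldehyde dehydrogenase, was 1.62-fold higher (adjusted p = 0.255, and 0.0443 with the intensity trend). SLC7A5, a carrier of large neutral amino acids and of thyroid hormone, was 1.42-fold lower (adjusted p = 0.364, and 0.00951 with the intensity trend). CYP1A1, the classical AHR target, was below the negative controls on all arrays. TIPARP differed by 0.25 (SE 0.14) and NQO1, above the negative controls on all arrays, by -0.03 (SE 0.15).

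ABCA1 and ABCG1 are textbook targets of the liver X receptors. Of the 12 other measured targets of these receptors, 6 of them under the negative controls on every array, 3 were higher and 9 lower. The unadjusted p was under 0.05 for 1 of the 12, APOC1. This apolipoprotein gene was 1.31-fold lower (adjusted p = 0.44) and the fatty acid synthase gene FASN 1.2-fold lower (adjusted p = 0.57). Of 11 PPAR targets, 5 of them under the negative controls on every array, 5 were higher and 6 lower. At an unadjusted p under 0.05, 1 was higher and 2 lower, against 5.7% and 5.49% of all transcript clusters. The higher 1 was PDK4, with 6.65 and 6.59 in control cells, below the negative controls, against 7.34 and 7.25. The lower 2, FABP3 (-1.1) and FABP4 (-0.68), lay below the negative controls on all arrays. ACAA2 and HADHA, enzymes of mitochondrial fatty acid oxidation, were 1.2-fold and 1.11-fold higher (adjusted p = 0.584 and 0.739). Of 7 targets of the pregnane X receptor, 4 of them under the negative controls on every array, 5 were higher and 2 lower. The unadjusted p was under 0.05 for 1 each. The intensity trend called 1 PPAR target lower (FABP3), 1 pregnane X receptor target higher, and 0 of the 12 liver X receptor targets. Over all transcript clusters it called 1.37% higher and 0.513% lower.

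Enzymes that make or feed the substrates of these exporters showed no call in limma's test. Of 29 measured transcript clusters for cytochrome P450 enzymes, 19 lay under the negative controls on every array. Of the 29, 15 were higher and 14 lower, 4 each at an unadjusted p under 0.05, against 5.7% and 5.49% of all transcript clusters. Those 4 lower clusters, of CYP1A2, CYP1B1, CYP2D6 and CYP3A43, lay below the negative controls on all arrays. So did CYP26A1 and CYP2W1 among the 4 higher. CYP3A5, a main drug-oxidising enzyme outside the liver and a pregnane X receptor target, had log2 values of 12.86 and 12.89 in control cells and 13.58 and 13.54 with fb-PMT. It was 1.61-fold higher (adjusted p = 0.249, and 0.00273 with the intensity trend). CYP27A1, a mitochondrial sterol hydroxylase, was 1.91-fold higher (adjusted p = 0.33), with control arrays at 8.21 and 7.52. Its log2 difference of 0.94 was 0.593 without control replicate 2. The intensity trend called 2 of the 29 higher, against 1.37% of all transcript clusters. They were CYP3A5 and CYP26A1, a retinoic acid hydroxylase. CYP26A1 lay under the negative controls on every array and is named after its values were seen.

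Conjugating enzymes attach glucuronate, sulfate, glutathione or acetyl groups and so supply the ABCC exporters. Of 36 measured transcript clusters 26 were higher and 10 lower, with a median of 0.138, 2 higher and 0 lower at an unadjusted p under 0.05, and 0 with the intensity trend. Those 2, NAT2 and SULT2B1, lay below the negative controls on all arrays. The largest differences above the negative controls were NAT1, an arylamine acetyltransferase (1.26-fold lower, adjusted p = 0.542), and GSTT2, a glutathione transferase (1.24-fold higher, adjusted p = 0.624). NAT1's log2 difference of -0.33 fell in size to -0.178 without control replicate 2. That of GSTT2, 0.31, was 0.0879 without fb-PMT replicate 2, 0.183 without control replicate 1 and 0.532 without fb-PMT replicate 1. The groups overlapped for this transcript cluster, and the other cluster of GSTT2 differed by 0.22 (SE 0.15).

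Among 27 measured carriers for uptake of drugs and vitamins, 11 were higher and 16 lower, 3 and 4 at an unadjusted p under 0.05. Of these, the higher SLCO2B1 and the lower SLC15A2, SLC22A6 and SLC28A3 lay below the negative controls on all arrays. SLC22A5, the carnitine transporter, had 7.57 and 7.46 in control cells against 8.36 and 8.36 with fb-PMT (1.8-fold higher, adjusted p = 0.192, and 0.0434 with the intensity trend). SLC15A1, an importer of small peptides, was 1.35-fold lower (adjusted p = 0.439).

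Proteins known to bind, phosphorylate or traffic ABCG2 held the 1 listed gene outside the exporters that passed limma's test over all transcript clusters. That test called 0.0979% of all transcript clusters higher and 0% lower. The list was drawn up with earlier results of these data known, so nothing is read from the gene's place in it. Of 14 measured, 7 were higher and 7 lower, with a median of -0.003. PDZK1, a scaffold that anchors membrane transporters at the apical surface, rose. Its log2 values were 6.83 and 6.60 in control cells, below the negative controls, and 8.96 and 8.95 with fb-PMT. That is a log2 difference of 2.24 (SE 0.16), at least 3.15-fold higher, with an adjusted p of 0.0227. Leaving out 1 array kept the difference between 2.13 and 2.36 but ended the call, with an adjusted p of 0.0555 and 0.0713 when control replicate 1 or 2 was dropped and of 0.341 and 0.337 when the same-numbered fb-PMT array was.

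PIM1, a kinase that phosphorylates ABCG2, is named after its values were seen. It had 10.30 and 10.32 in control cells against 11.29 and 11.49 with fb-PMT, 2.12-fold higher, which did not pass (adjusted p = 0.123, but 0.00133 with the intensity trend). The membrane linkers EZR, RDX and MSN and the caveolar protein gene CAV1 differed by -0.23, 0.00, -0.01 and -0.07.

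Genes for porphyrins and haem, natural substrates of ABCG2, gave 0 calls among 20 measured, 10 higher and 10 lower. On every array 5 of the 20 lay under the negative controls. The unadjusted p was under 0.05 for 0 higher and 1 lower gene, and the intensity trend called 0. That 1 gene was ALAS1, the rate-limiting enzyme of haem synthesis and a pregnane X receptor target, with 11.97 and 11.98 in control cells against 11.52 and 11.60 (1.33-fold lower, adjusted p = 0.404). BLVRB, a biliverdin reductase, was 1.43-fold higher (log2 difference 0.51, SE 0.23, adjusted p = 0.48), with a difference of 0.28 without fb-PMT replicate 1 and 0.336 without control replicate 1.

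Genes of the side population and of stem cells, other than ABCG2, gave 0 calls among 17 measured in limma's test. On every array 9 of them lay under the negative controls. Of the 17, 10 were higher and 7 lower, 2 each at an unadjusted p under 0.05, against 5.7% and 5.49% of all transcript clusters. Those 2 lower genes, SOX2 and DCLK1, lay below the negative controls on all arrays. ALDH1A3, a retinaldehyde dehydrogenase, had 12.97 and 13.05 in control cells against 14.02 and 13.82 (1.88-fold higher, adjusted p = 0.186, and 0.000725 with the intensity trend). CD24, a surface glycoprotein, was 1.44-fold higher (adjusted p = 0.343, and 0.0105 with the intensity trend). The trend called 3 of the 17 higher, against 1.37% of all transcript clusters. The third was EPCAM, also the epithelial marker above (log2 difference 0.35, adjusted p = 0.0371 with the intensity trend). Of the 12 cell type markers, that setting called 1 higher and 3 lower. Those 3 were the epithelial keratin genes KRT7 (-0.95), KRT18 (-0.46) and KRT8 (-0.29), while KRT19, at -0.19, was not called.

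**Figure D4:**
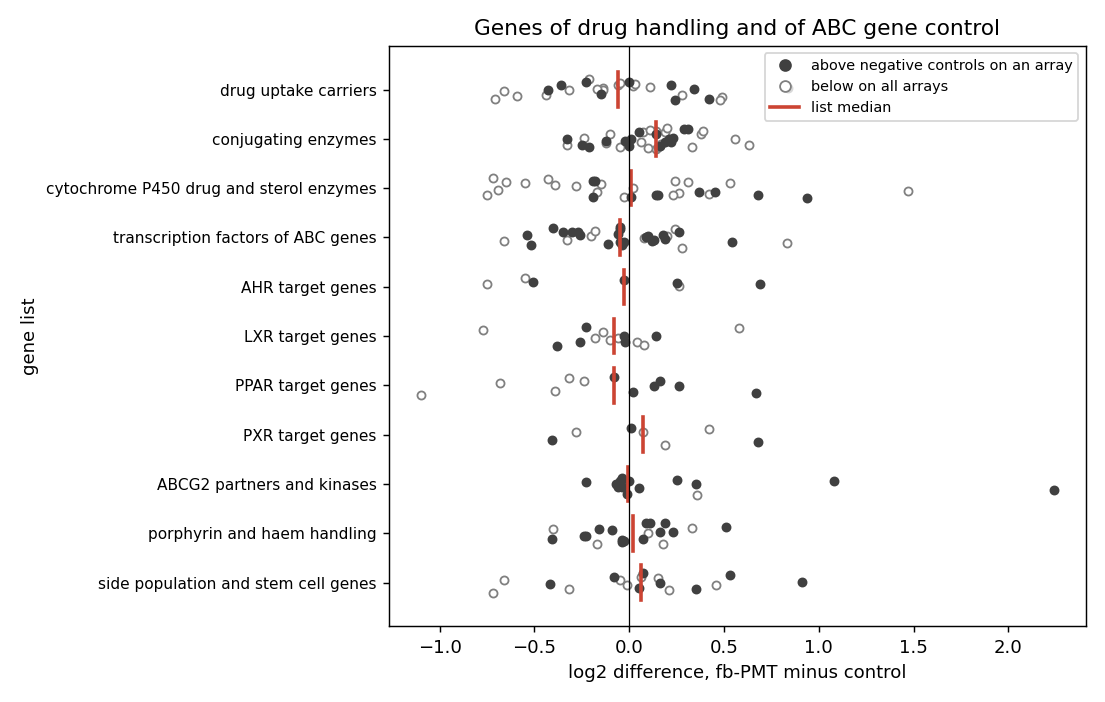
Log2 differences, fb-PMT minus control (horizontal axis), of each measured gene in the lists of drug handling and ABC gene control (rows), with list medians as vertical lines. Open points stayed under the negative controls on every array. The medians lie between -0.079 and 0.138, and PDZK1 at 2.24 stands to the right of the others.

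The genes nearest to ABCG2 were found, as a description, by the Euclidean distance of log2 values after each gene's control mean was subtracted. Only genes above the negative controls on both fb-PMT arrays were considered. With 2 arrays a group, this distance mostly follows the size of the difference. The 6 genes hold ranks 3, 5, 6, 7, 8 and 9 on the high side, so the list restates the contrast used to choose ABCG2 and shows no shared pattern beyond it. The nearest was CPM, a membrane carboxypeptidase, at a distance of 0.52, followed by LGALS9, which encodes galectin-9, at 0.66. MXRA5, a matrix protein gene, followed at 1.00, then the interferon response factor gene IRF1 at 1.10, GRAMD1C, of a sterol transfer family, at 1.20 and the receptor gene TNFRSF9 at 1.25. CPM, MXRA5 and TNFRSF9 were below the negative controls in control cells and entered only through the fb-PMT arrays. ABCG2, LGALS9, IRF1 and GRAMD1C were above the negative controls on all arrays.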

How the data were processed

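SUIT2 RNA was measured on 4 whole-transcript arrays of 1 colour. Per the submitters' processing notes, the authors made the deposited log2 probe set values by RMA, using version 4.0.1.36 of Transcriptome Analysis Console. Which RMA variant and which genome build they used is not given in the sources used here. RMA compresses differences of dim probe sets, and its normalization removes shifts shared by most genes. Of the deposited rows, 2903 control probe sets were left out, and 612 negative controls among them set the background. Symbols came from the platform annotation for 17709 of 21448 transcript clusters. A fold against a group below the background is a lower bound taken from the 95th percentile.

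Differences, fb-PMT minus control, were fitted in R 4.3.3 by limma 3.58.1 (lmFit, then eBayes without trend, 3.72 prior degrees of freedom), with two-sided p-values and Benjamini-Hochberg adjustment over all of them. The median SE was 0.175. On simulated data 9.4% of simulated 2-fold and 89% of 4-fold changes passed, beside 7.9 false calls in each run on average. Each run held planted changes from 2-fold to 16-fold. The adjusted threshold depends on their number and size, so these shares need not hold for the real contrast. The number of arrays limits the precision.

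Members and lists were chosen with earlier results of these data known. Named were all members, and up to 3 passing rises and falls of each list or else its 2 largest differences above background. Also named were the 4 nearest genes with a transcript cluster on each side of ABCG2. Named too were the 6 genes nearest to it by distance among those above the negative controls on both fb-PMT arrays. CYP2D6 and GSTT2 had 2 transcript clusters each, counted separately. Alternative settings were a variance trend with intensity, a block for the replicate number, filters on dim probe sets, renewed quantile normalization, centring on medians, the mean per symbol and leaving out each array.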

Additional observations from a re-analysis of the deposited data

How the results depend on the processing

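For the 9 measured transporter genes, the replicate block, the intensity trend, the filters and the mean per symbol return the same log2 difference by construction (the filter on negative controls leaves out 4 of the genes), and leaving out 1 array moves it in proportion to the gap between that group's arrays, so neither shows stability. ABCA1 ranged from 0.318 to 0.838 when 1 array was left out, ABCC2 from -0.451 to -0.132, and ABCC5 and ABCC10 changed sign. Counts over all transcript clusters depended on the variance model and on the filter. The 21 higher and 0 lower calls became 293 and 110 with an intensity trend, 61 and 6 without the lowest 30%, and 235 and 83 among transcript clusters above the negative controls only. Leaving out 1 array gave 1 to 9 higher calls and 0 lower: 9 when control replicate 1 was dropped, 5 for control replicate 2, and 1 when either of the fb-PMT replicates was dropped. With the replicate block, 1 was higher and 0 lower, and PDZK1 had an adjusted p of 0.0836. The labels do not say whether same-numbered arrays belong together. Deviations of same-numbered arrays from their group means correlated with r = 0.042 over all transcript clusters. Most of these lay below the negative controls on all arrays, so the correlation cannot settle it. Some of these settings fitted fewer arrays or transcript clusters, and the cause was not tested further. Of 275 values for the other named genes, 251 kept direction and side of the threshold, 15 came to pass it, 5 no longer passed, all of PDZK1, and 4 reversed. ABCA7 ranged from -0.22 to 0.483 when 1 array was left out, and was negative without control replicate 1. ABCD3 ranged from -0.0365 to 0.112 when 1 array was left out. It was at -0.00134 with renewed quantile normalization, -0.0365 without control replicate 2 and -0.0286 without fb-PMT replicate 1. Signal near the background limits ABCB1, ABCG1, ABCA1, ABCC5 and ABCC10.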
